A study of Mus musculus with 3 samples.

Results

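The receptors through which bone morphogenetic proteins (BMPs) act, their co-receptors and the pseudoreceptor Bambi were followed in undifferentiated R1 cells, a line of mouse embryonic stem cells. The genes are the 10 listed by name, Bmpr1a, Bmpr1b, Acvr1, Bmpr2, Acvr2a, Acvr2b, Bambi, Hjv, Eng and Rgmb, out of 18193 genes that the array names. They were taken by symbol from the platform annotation, which pairs 32 probe sets with them. Of these, 31 belong to 1 of the genes alone and are described here, and 1 is shared between Acvr2a and another gene and is left out. A probe set is a group of short probes that measure 1 transcript region.

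Cells were left untreated, given 20 ng/ml BMP4 for 4 h, or given 100 ng/ml noggin for 4 h. Noggin, a secreted protein, captures BMPs before they reach a receptor. All 3 groups were the same line, the labels used here name no genetic change, and for the untreated cells they give no time or vehicle. Each group was 1 Affymetrix array, 3 arrays in all, so no value has a replicate error and no test between groups could be made. Values are log2 expression values, on which a difference of 1 is a doubling. Values of different probe sets are not compared with each other, since each binds its target with its own strength.

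BMPs signal by bringing together type I and type II receptors, both of which are transmembrane serine/threonine kinases. The type II receptor phosphorylates the type I receptor, which then phosphorylates SMAD1, SMAD5 and SMAD9, and these enter the nucleus with SMAD4. The type I receptors here are Bmpr1a (ALK3), Bmpr1b (ALK6) and Acvr1 (ALK2), and the type II receptors are Bmpr2, Acvr2a and Acvr2b, of which the activin receptors Acvr2a and Acvr2b also serve activin and Nodal. Co-receptors such as the repulsive guidance molecules Rgmb and Hjv (hemojuvelin) and the glycoprotein Eng (endoglin) bind ligand beside the receptors. Bambi resembles a type I receptor but lacks the kinase domain, and it is known as a transcriptional target of BMP signalling that dampens signals of the family. BMP signals help to sustain embryonic stem cells that are grown with LIF.

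The treatments were read first on the Id genes, direct BMP-SMAD targets. Id1 measured 8.78 in untreated cells, 11.54 with BMP4 and 8.59 with noggin, Id2 measured 4.80, 8.90 and 4.31, and Id3 measured 5.58, 9.16 and 5.31. Each was highest with BMP4 and lowest with noggin. All 10 embryonic stem cell markers lay above 3.44, the median of all values on the 3 arrays, which served as a floor below which a value was treated as background. Their median was 11.08 untreated, 11.16 with BMP4 and 11.04 with noggin. Above the floor lay 7 of 10 fibroblast markers (feeder cells), 5 of 8 primitive endoderm markers, 3 of 8 endothelial and blood markers and 3 of 6 skeletal muscle and liver markers. Over all genes the share above the floor was 63.7%. These counts are therefore not read as showing that such cells were present. Of 24 probe sets for poly-A spike RNAs, a labelling control, 24 lay below their untreated value with BMP4 and 23 with noggin, with medians of −0.63 and −0.18. The part of this difference in the values given here was not tested.

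A gene was represented by its probe set with the highest mean, and 9 of the 10 genes had a representative above the floor on at least 1 array, as did 11594 genes in all. Bmpr1b was the 1 that did not. Of the 31 probe sets, 17 lay above the floor on at least 1 array and 14 on none. The median difference of the 9 genes was 0.00 for BMP4 minus untreated and 0.04 for noggin minus untreated, against 0.00 over all genes above the floor in both. With BMP4 4 of the 9 were higher than untreated, 2 lower and 3 exactly equal, where 2871 of the 11594 genes were higher, 4129 lower and 4594 equal. With noggin 5 of the 9 were higher, 2 lower and 2 equal, where 3109 of all genes were higher, 4191 lower and 4294 equal.

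A size of 1.2-fold, 0.26 on the log2 scale, was used to set apart the larger differences, as a description and not a test. With BMP4, 1 gene, Bambi, was at least 1.2-fold higher, where 1.59% of all genes above the floor were, and 1 gene, Hjv, was at least 1.2-fold lower, where 2.25% were. With noggin 0 of the 9 were at least 1.2-fold higher, against 0.897% of all genes, and Hjv alone was at least 1.2-fold lower, against 1.9%. Hjv passed the floor through the untreated array alone, where it was high, so both of its counts as lower were partly set by the filter and nothing is read from them. Between BMP4 and noggin, Bambi was at least 1.2-fold higher, against 3.37% of all genes, and 0 of the 9 were at least 1.2-fold lower, against 3.26%. At 1.5-fold 0 of the 9 passed in any of the 3 comparisons, which in either direction 0.276% of all genes did with BMP4, 0.0776% with noggin and 0.518% between BMP4 and noggin. Differences between probe sets of the same gene give a technical spread to read these sizes against. Their within-gene SD was 0.13 for BMP4 minus untreated and 0.11 for noggin minus untreated, over 13666 probe sets of 5139 genes. This spread is among probes on the same arrays, is narrowed by exactly equal values, and leaves out the variation between cultures.

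**Figure D1:**
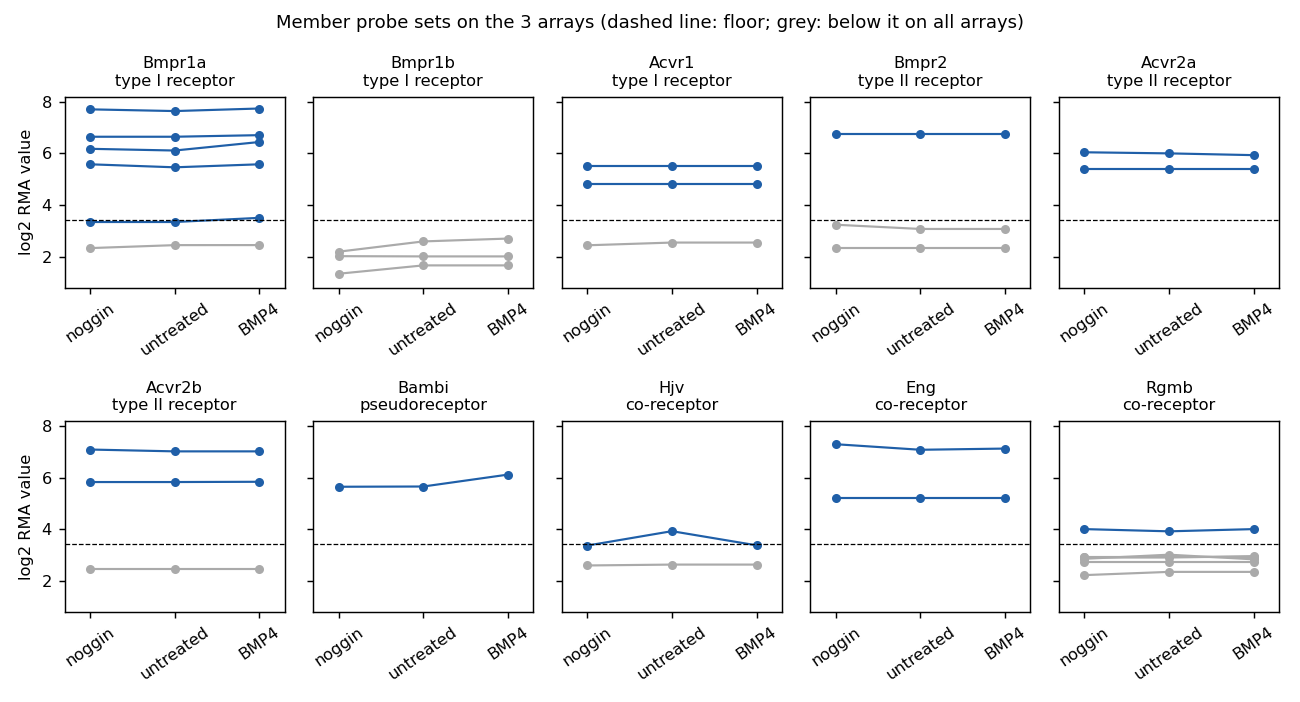
Log2 RMA value (vertical axis) of each of the 31 probe sets on the noggin, untreated and BMP4 arrays (horizontal axis), 1 panel per gene, 1 line per probe set, with the floor of 3.44 dashed and probe sets below it on all arrays in grey. Most lines are flat; Bambi is higher on the BMP4 array, at 6.12, and Hjv is higher on the untreated array, at 3.93.

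Bambi was the member furthest above its untreated value. Its only probe set, 1423753_at, measured 5.66 untreated, 6.12 with BMP4 and 5.65 with noggin. The BMP4 array stood apart, and the other two differed by 0.01. The difference was 0.46, a 1.38-fold higher value with BMP4, and 0.47 between BMP4 and noggin. Of the 11594 genes, 49 were at least as far above their untreated value with BMP4, Bambi included, or 0.423%. Among the 1834 genes whose mean level lay within 0.5 of that of Bambi there were 5 such genes. With 1 probe set Bambi offers no second measurement of its own.

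The other BMP targets of a list of 11 show the scale of the response on these arrays. With BMP4 10 of the 11 were higher and 1, Atoh8, was exactly equal, with a median difference of 0.84. The inhibitory SMAD genes, whose proteins block receptor signalling as Bambi does, were on either side of Bambi: Smad6 differed by 0.67, from 4.40 to 5.07, and Smad7 by 0.34, to 8.35 with BMP4. The homeobox gene Msx2 differed by 1.54, the GATA factor gene Gata2 by 0.99 and Id4 by 0.84. Other probe sets of Gata2 and Id4 above the floor differed by less, by 0.27 for Gata2 and by 0.50 and 0.34 for Id4. With noggin, the representatives of Id2 (−0.49), Gata2 (−0.47), Id4 (−0.40) and Id3 (−0.26, on the limit) were at least 1.2-fold lower. Their other probe sets above the floor were at −0.05 for Id2, −0.11 for Gata2, and −0.41 and −0.22 for Id4. Bambi (−0.01) and Smad6 (0.00) lay near their untreated values and Smad7 was at 0.16. The second probe set of Smad7, at 0.13 with BMP4, was at −0.19 with noggin. Whether Bambi responded to noggin differently from the Id genes could not be tested with 1 array each.

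**Figure D2:**
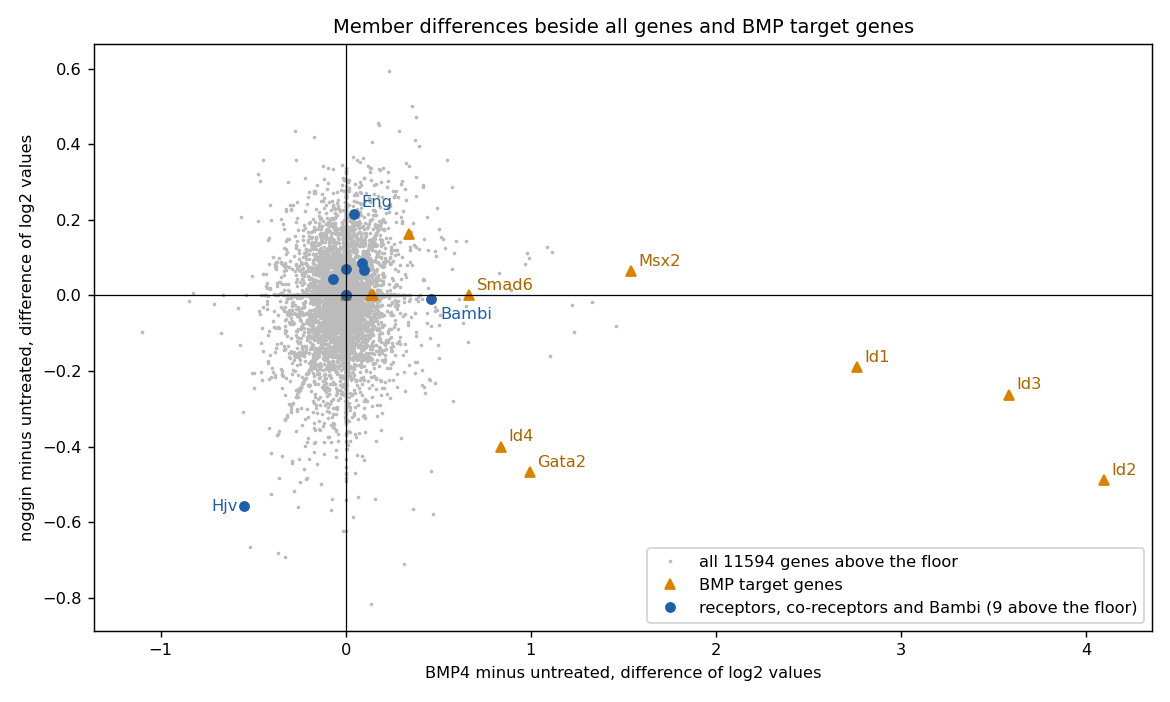
Difference of log2 values for BMP4 minus untreated (horizontal axis) against noggin minus untreated (vertical axis) for the 11594 genes above the floor (grey), the 11 BMP target genes (orange triangles) and the 9 receptor, co-receptor and Bambi genes above the floor (blue). Bambi lies on the horizontal axis at 0.46 and Hjv at −0.55 and −0.56; both axes share the untreated array, so an unusual untreated value moves a gene along the diagonal.

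The genes with a pattern most like that of Bambi were taken by distance in the plane of the 2 differences from the untreated array, over the 3 arrays. They were Tatdn2 at a distance of 0.01, Spry4 and Cpd at 0.03, and Prpf4 and Smn1 at 0.04. Spry4, an inhibitor of receptor tyrosine kinase signalling, measured 7.45 untreated, 7.93 with BMP4 and 7.42 with noggin. Its other 3 probe sets were also higher with BMP4, by 0.09 to 0.41. With noggin these were at −0.44, −0.21 and 0.00, so only the last was as near its untreated value as Bambi. Cpd, which encodes carboxypeptidase D, had 5 other probe sets above the floor, and their differences with BMP4 ran from −0.06 to 0.06. The second probe set of Prpf4, a splicing factor gene, was exactly equal on the untreated and BMP4 arrays. Tatdn2 and Smn1 had 1 probe set each.

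Bmpr1a, the type I receptor that mouse embryos need for gastrulation, had 6 probe sets, of which 5 were above the floor. The representative, 1425492_at, measured 7.64 untreated, 7.74 with BMP4 and 7.71 with noggin. Probe set 1425493_at measured 6.11, 6.44 and 6.18 in the same order, and 1425491_at measured 5.46, 5.58 and 5.58. Probe set 1425494_s_at measured 6.65, 6.71 and 6.65, and 1451729_at, the nearest to the floor, measured 3.34, 3.50 and 3.34. The first 4 were above the floor on every array, and on each of them the BMP4 value was above the untreated value. The last was above the floor on the BMP4 array only, so the filter fixed its direction and it is left out of the counts that follow.

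The 4 differences with BMP4 ran from 0.06 to 0.33. The probe set below the floor on all arrays was at 0.0016. Only 1425493_at passed 1.2-fold, at 1.26-fold, and the representative differed by 0.10, and 8.11% of all genes were at least as far above their untreated value. With noggin, 3 of the 4 were above the untreated value and 1 exactly equal, from 0.00 to 0.12. Between BMP4 and noggin 3 of the 4 were higher with BMP4 and 1 was equal, from 0.00 to 0.26. Probe sets of 1 gene on the same arrays share the RNA and are not replicates, and these 4 refer to the same transcript record in the annotation.

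The region before a gene's start was read for Bmpr1a, whose probe sets lay above untreated with BMP4, and for Bmpr2, whose representative was exactly equal on all arrays. Both hold the letters GGCGCC, a GC-rich element that SMAD1 and SMAD5 are known to bind. The genes were picked with these values known. An exactly equal value does not show that there was no difference, so the genes are not set against each other here. Whether the letters play a part in the values was not tested. Each run is the 250 bases before the start in RefSeq (build GRCm38.p6), 5′ to 3′ on the gene's strand, with GGCGCC in capitals. The Bmpr1a run is chr14:34502547-34502796 on the minus strand, and that of Bmpr2 is chr1:59764029-59764278 on the plus strand.
Bmpr1a: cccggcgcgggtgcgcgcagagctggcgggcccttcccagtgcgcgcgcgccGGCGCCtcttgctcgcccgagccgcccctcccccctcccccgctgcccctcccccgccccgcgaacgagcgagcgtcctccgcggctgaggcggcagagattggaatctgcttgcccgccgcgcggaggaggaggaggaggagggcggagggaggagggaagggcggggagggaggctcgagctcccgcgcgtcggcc
Bmpr2: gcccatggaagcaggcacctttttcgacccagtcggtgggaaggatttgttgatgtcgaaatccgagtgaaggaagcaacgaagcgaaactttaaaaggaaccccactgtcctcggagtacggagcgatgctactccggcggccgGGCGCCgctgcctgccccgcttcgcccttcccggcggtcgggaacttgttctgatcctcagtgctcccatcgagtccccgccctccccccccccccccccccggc

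In Bmpr1a the motif began 198 bases before the start, and in Bmpr2 105 bases before it. G and C made up 78.8% of the Bmpr1a run and 64% of the Bmpr2 run. Windows of 250 bases before RefSeq starts, 12 in all, were read for 8 of the 10 genes. Bambi and Hjv had no window among them. Member windows on 1 chromosome were left out by a filter that was not applied to all genes. Members and all genes were therefore not chosen alike, and nothing is said here on the region before Bambi. GGCGCC, which reads the same on both strands, was found for 3 of the 8 genes (Bmpr1a, Bmpr2 and 1 of the 3 starts of Rgmb), and for 10.8% of all 27025 genes with such windows. GGAGCC, a related element searched on both strands, was found for 4 of the 8 (Acvr1, Acvr2b, and some starts of Bmpr1b and Rgmb), and for 28.6% of all genes. By window, 3 of the 12 held GGCGCC and 5 held GGAGCC, against 9.59% and 26% of all 32851 windows of that length. The motifs do not overlap in letters where both were counted, since no window of these genes held both. A match describes the letters and is not a binding site.

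Bmpr1b, the second BMP type I receptor and one known from limb cartilage and ovary, was below the floor with all 3 probe sets. Probe set 1437312_at measured 2.59 untreated, 2.70 with BMP4 and 2.19 with noggin. Probe set 1422872_at measured 2.01 untreated, 2.01 with BMP4 and 2.02 with noggin, and 1443720_s_at measured 1.66, 1.66 and 1.34. The lower noggin values, by −0.40 and −0.32, are differences within the background. Low values as a whole lay lower with noggin, where the 5th percentile over all probe sets was 1.60, against 1.82 on each of the other arrays. The genes above the floor nearest to 1437312_at in the plane of differences were Nenf, Neat1, Nmral1, Alppl2 and Gpx6, at distances of 0.03 to 0.06. Gpx6 was above the floor on the BMP4 array only. Since 1437312_at lay in the background, nothing is read from these neighbours.

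Acvr1, a type I receptor shared by BMPs and activins, had the same value on all 3 arrays for both probe sets above the floor, 5.53 for 1448460_at and 4.81 for 1416786_at. Its remaining probe set, below the floor, measured 2.55 untreated, 2.55 with BMP4 and 2.44 with noggin. Exact equality is common in these values: 24.6% of all probe sets above the floor had the same value on all arrays, and 5 of the 17 member probe sets above the floor did, or 29.4%. Median polish, the step that summarises probes, can return equal values over few arrays, so an equal value does not show that there was no difference.

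Above the floor, every probe set of the type II receptors differed from untreated by less than the within-gene SD. Bmpr2, the type II receptor that is specific for BMPs, measured 6.75 on all 3 arrays with 1434310_at. Its other 2 probe sets were below the floor, and the larger of their differences was 0.16 with noggin, from 3.07 to 3.24. For Acvr2a, 1437382_at measured 6.00 untreated, 5.93 with BMP4 and 6.04 with noggin, and 1451004_at measured 5.41 on each array. For Acvr2b, 1419140_at measured 7.02 untreated, 7.02 with BMP4 and 7.09 with noggin, and 1439856_at measured 5.83, 5.84 and 5.83. The order noggin, untreated, BMP4 from high to low in Acvr2a rested on 1 probe set and on differences of 0.04 and −0.07. The remaining probe set of Acvr2b measured 2.48 on every array, below the floor.

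Hjv, a co-receptor known from skeletal muscle and liver, where it governs hepcidin and iron balance, had the largest difference from untreated of the 10 representatives. Probe set 1454137_s_at measured 3.93 untreated, 3.38 with BMP4 and 3.37 with noggin. The untreated array stood apart, and the treated arrays differed by 0.01 from each other and lay below the floor of 3.44. The differences were −0.55 with BMP4 and −0.56 with noggin, taken against values in the background, so no fold is given. They share the untreated value, so they are not separate observations.

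Of all genes above the floor, 11 were at least as far below untreated with BMP4, Hjv included, and 13 were with noggin. Hjv passed the floor through the untreated array alone, so the filter partly set these ranks and nothing is read from them. The second probe set, 1429223_a_at, was below the floor at 2.64 untreated, 2.64 with BMP4 and 2.60 with noggin. Thus 1 probe set of 2 showed the difference. The suffix _s_at marks probes that can match transcripts of more than 1 gene. Of the muscle and liver markers, Myod1 and Myog, which define muscle precursors, and Alb were below the floor on all arrays, and the 3 above it, Acta1, Ckm and Ttr, differed from untreated by at most 0.04 in size. The summed linear value of all 6 markers was 77.3 untreated, 76.4 with BMP4 and 75.9 with noggin.

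The genes most like Hjv were Slc44a2 at a distance of 0.11, Rad51b at 0.15, Bcdin3d and Timm8a2 at 0.20, and Bcan at 0.22, further from it than the neighbours of Bambi were from Bambi. Slc44a2, a choline transporter-like gene, measured 6.74 untreated, 6.23 with BMP4 and 6.08 with noggin. Rad51b, a homologous recombination gene, measured 4.02, 3.62 and 3.49. Bcan passed the floor through the untreated array alone, as Hjv did.

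Eng, a co-receptor best known from endothelium, where it serves BMP9 and TGF-beta, measured 7.08 untreated, 7.13 with BMP4 and 7.30 with noggin with 1417271_a_at. The noggin array was highest. The difference from untreated was 0.21, 1.16-fold, and 1.75% of all genes were at least as far above untreated. The second probe set, 1432176_a_at, was exactly equal on all arrays at 5.21. Among endothelial markers Cdh5, Tie1 and Vwf were below the floor on all arrays, as was the blood marker Ptprc. Pecam1, Kdr and Tek were above it, and with noggin they differed from untreated by −0.03 to 0.02. The list's summed linear value was 206 untreated, 209 with BMP4 and 207 with noggin. Pecam1, at 7.12 untreated, 7.16 with BMP4 and 7.14 with noggin, had the highest value in the list and weighed most in this sum. No sum without Pecam1 was made. In bulk RNA, a change in the share of cells that express a gene and a change in RNA per cell cannot be told apart.

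Rgmb (Dragon), which binds BMP2 and BMP4, had 6 probe sets, of which 1 was above the floor. That one, 1428429_at, measured 3.93 untreated and 4.01 on each treated array, a difference of 0.09 in both cases. The 5 below the floor differed from untreated by −0.18 to 0.05 with BMP4 and by −0.16 to 0.00 with noggin. The one at −0.18 and −0.16 was opposite in sign to the representative in both comparisons.

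**Figure D3:**
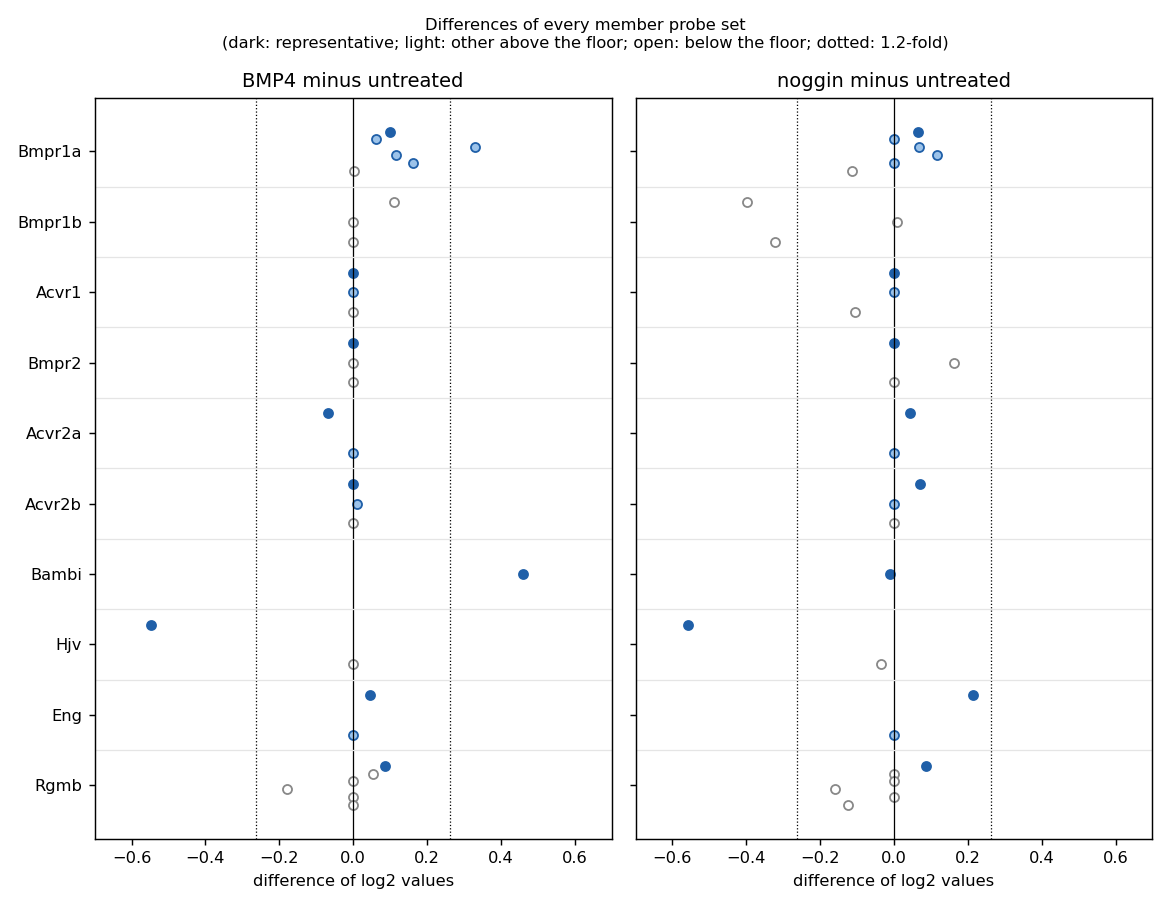
Difference of log2 values (horizontal axis) of all 31 probe sets, by gene (vertical axis), for BMP4 minus untreated (left) and noggin minus untreated (right); dark points are representatives, light points other probe sets above the floor, open points those below it, and dotted lines mark 1.2-fold. With BMP4 the probe sets past 1.2-fold are those of Bambi (0.46), Hjv (−0.55) and 1 of Bmpr1a (0.33); with noggin they are 1 of Hjv (−0.56) and 2 of Bmpr1b below the floor.

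Of 13 other TGF-beta family receptors and co-receptors, 8 were above the floor and 0 of the 8 reached 1.2-fold with BMP4 or noggin. With BMP4 1 was higher, 3 were lower and 4 equal, from −0.15 for Acvr1b (ALK4, the activin and Nodal type I receptor) to 0.03 for Tgfbr1. With noggin 2 were higher, 5 lower and 1 equal, from −0.11 for Nrp1 to 0.15 for Tgfbr3 (betaglycan). Acvrl1 (ALK1), which pairs with Eng in endothelium, was below the floor, at 2.85 untreated, 2.75 with BMP4 and 2.51 with noggin. Tdgf1 (Cripto), the Nodal co-receptor, measured 11.47, 11.45 and 11.43.

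Just inside the cell, 14 of 15 genes for regulators that act on the receptors or on their SMAD substrates were above the floor. With BMP4 8 were higher, 2 lower and 4 equal, and 3 were at least 1.2-fold higher: Smad6, Smad7 and Map3k7 (TAK1, a kinase activated by BMP and TGF-beta receptors). Map3k7 measured 7.39 untreated, 7.75 with BMP4 and 7.47 with noggin, but its other 3 probe sets above the floor differed by −0.19 to −0.03 with BMP4. With noggin 8 of the 14 were higher, 1 lower and 5 equal, and 0 reached 1.2-fold. Fkbp1a, whose protein holds type I receptors inactive, was equal on all arrays at 9.75, and the ubiquitin ligase gene Smurf1 was at 0.12 on both treated arrays. Of the 6 receptor-activated and common SMAD genes 5 were above the floor, and 0 of these reached 1.2-fold. Smad1 was at −0.12 in both comparisons, Smad3 at −0.07 with BMP4 and 0.11 with noggin, and Smad2 and Smad4 were equal on all arrays.

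**Figure D4:**
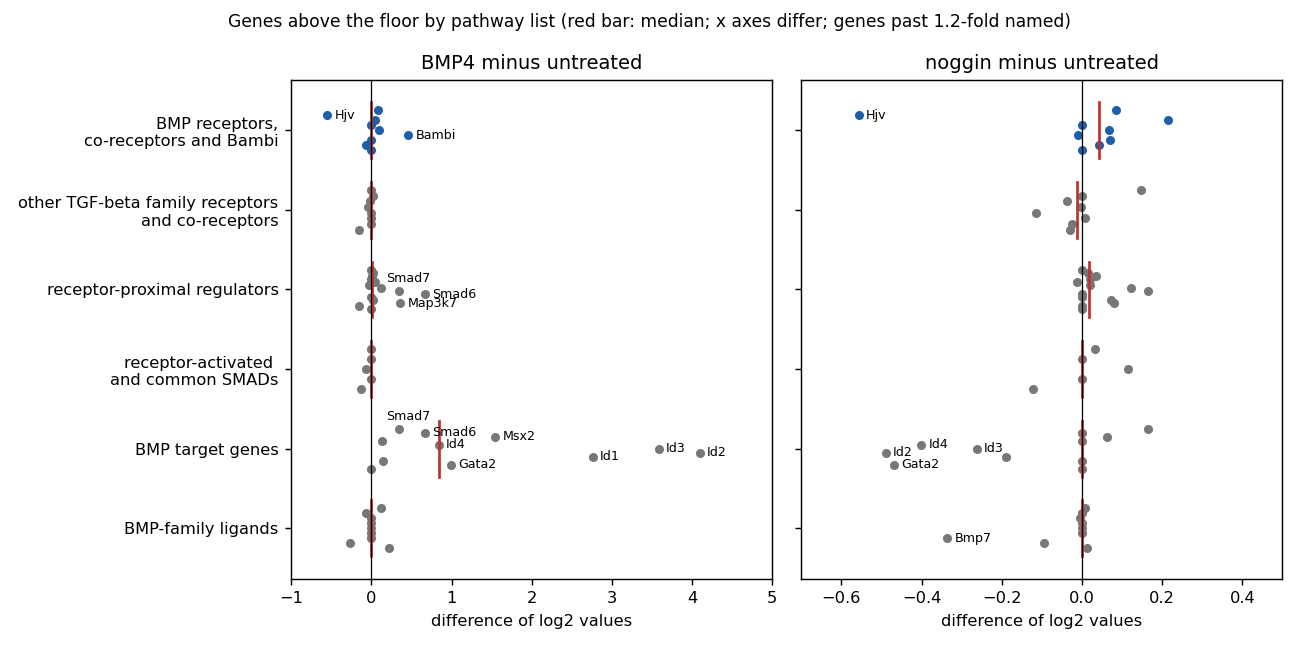
Difference of log2 values (horizontal axes, which differ between panels) for genes above the floor in 6 lists (vertical axis), with BMP4 minus untreated on the left and noggin minus untreated on the right; red bars are medians, and genes past 1.2-fold are named. The median is 0.84 for BMP target genes with BMP4 and lies within 0.05 of 0 for every other list in both panels.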

How the data were processed

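The table deposited by the authors gives a log2 value for each probe set on each of 3 arrays, made with RMA according to the submitters' processing notes. The method corrects background, makes array distributions alike and summarises probes by median polish, which over few arrays can give exactly equal values and can hide a general shift in RNA content. Its version and settings are not given in the sources used here, nor is a genome build. Values were used as deposited. The platform annotation pairs 34945 of the 45101 probe sets with 1 gene; 34741 of these matched RefSeq identifiers and 0 symbols were updated. Control probe sets were left out of gene values. The probe set of highest mean stood for its gene, which was kept if its highest value exceeded the median of all values, 3.44. Values within 1e-06 were called equal.

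The named genes are all 10 members, genes of the 5 pathway lists past 1.2-fold from untreated, the 5 nearest genes to Bambi and to other members past 1.2-fold (clone names left out), and the Id genes. Members and lists were chosen with earlier results of these data known. Others (such as Acvr1b, Smad1 and Fkbp1a, and the markers) were named after their values were seen. Array number limits precision. Computation used Python 3.11.15 with pandas 2.3.3. Known differences added to a copy of the untreated values, without noise, were returned. That check covers the subtraction and the 1.2-fold limit only. Alternatives were centring, lowess (statsmodels 0.14.6, span 0.3), averaged or plain-suffix probe sets, other floors and other size limits.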

Additional observations from a re-analysis of the deposited data

How the results depend on the processing

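Counts are of members at least 1.2-fold from the other array: 2 with BMP4 and 1 with noggin, both against untreated, and 1 between BMP4 and noggin. For BMP4 minus untreated the count was 1, Bambi, with averaged probe sets, with plain-suffix probe sets and when the floor was raised to the 75th percentile. For noggin minus untreated the same 3 settings gave 0. Averaging put Hjv below the floor, at differences of −0.27 and −0.30, and Hjv and Eng have no plain-suffix probe set. With no floor, Bmpr1b entered and the count was 2 with noggin against untreated and also 2 between BMP4 and noggin, where every probe set above the floor also gave 2, Bambi and 1 of Bmpr1a. At 1.5-fold and at 2-fold all 3 counts were 0. Centring on the median moved nothing, and lowess moved no count. For the single genes, 108 of the 114 alternative values moved by less than the within-gene SD and 6 by more. Most of the 108 had little or no room to move. Centring and plain-suffix probe sets returned the same values, and lowess shifts were far below that SD. With averaged probe sets 24 values moved by less and 6 by more, and Bambi, with 1 probe set, could not move. Of the values past 1.2-fold, 0 changed sign. Among the 6, Eng with noggin was at 0.11 and Rgmb at −0.03. No paired analysis was possible because each group has 1 array.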

Other observations

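The ligands of these receptors were also measured. Of 13 BMP-family and activin ligand genes 9 were above the floor. With BMP4 2 of the 9 were higher, 3 lower and 4 exactly equal, and 0 reached 1.2-fold. Bmp4 itself measured 8.50 untreated, 8.24 with BMP4 and 8.40 with noggin, a difference of −0.26 with BMP4 that lay just inside 1.2-fold. Bmp10, a ligand known from heart, was at 0.23, from 3.55 to 3.78, near the floor. With noggin 2 were higher, 3 lower and 4 equal. Bmp7 was at least 1.2-fold lower, at 3.31 against 3.65 untreated, and it was then below the floor; its other 2 probe sets were below the floor on all arrays, at 0.06 and −0.11. Gdf3, expressed in pluripotent cells, measured 9.22, 9.21 and 9.21, and Bmp2 was below the floor on all arrays.

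Markers of other cells that a stem cell culture can hold differed both ways on the same arrays. Of the 8 primitive endoderm markers 5 were above the floor, and with BMP4 they were at 0.99 (Sox7), 0.52 (Gata6), 0.08 (Sox17), 0.00 (Dab2) and −0.17 (Lama1). With noggin Lama1 was at 0.27, Gata6 at 0.15, Sox7 at 0.10, Dab2 at 0.00 and Sox17 at −0.15. The summed linear value of the 8 was 309 untreated, 310 with BMP4 and 356 with noggin, and without Lama1 it was 89.5, 115 and 91.0, so Lama1 carried most of the noggin sum's difference. Of the 10 fibroblast markers 7 were above the floor. With BMP4 2 were higher, 3 lower and 2 equal, among them S100a4 at −0.55 and Postn, above the floor with noggin only, at −0.32. With noggin 3 were higher (Postn at 0.22, Thy1 at 0.18 and Vim at 0.02), 1 was lower (S100a4 at −0.31) and 3 were equal. The summed linear value of the 10 was 1275 untreated, 1267 with BMP4 and 1293 with noggin, and without Vim it was 149.8, 134 and 148. Their part in the receptor values was not tested.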
